A study of Mus musculus with 6 samples.

Results

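Interscapular brown fat of cold-exposed control mice is described here from the 3 control libraries of a set of 6 libraries. The controls were chosen by genotype: both alleles of Adcy3, which encodes an adenylyl cyclase that makes cAMP, were floxed (Adcy3-FL/FL), and the Adipoq locus carried no Cre (Adipoq-wt/wt), so the floxed gene was left intact. The other 3 libraries, in which Cre is driven from Adipoq in adipocytes, enter none of the values below. The mice were C57BL/6N, were kept on a chow diet for 20 weeks and spent 24 h at 5 °C before the tissue was taken. The labels of the samples name the interscapular depot. They give neither the sex of the mice nor the time of day at collection, and they number the 3 replicates without saying whether each was 1 animal. There was no group kept warm, so no value here shows what cold changed. The overall description of the series differs from these labels on the depot and on the number of replicates, and the labels were used.

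Brown adipocytes burn fatty acids and glucose in densely packed mitochondria to make heat. Noradrenaline from sympathetic nerves acts on β-adrenergic receptors, cAMP rises, lipid droplets are broken down, and the fatty acids released activate uncoupling protein 1 (UCP1), which lets protons re-enter the mitochondrial matrix without making ATP. The same cells take up lipids and glucose from the blood, and they both oxidise fatty acids and synthesise them.

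RNA selected for poly(A) was made into paired-end libraries, and each entry of the deposited table is an estimated count per gene. The 3 libraries held 16563277, 17315577 and 13956786 estimated counts. Values are given as CPM (counts per 1000000 of the library total), always in the order of libraries 1, 2 and 3, and ± is the SD over the 3. A CPM is a share of counts and grows with transcript length. Fold differences between genes therefore rest on counts per kilobase of the longest annotated transcript, scaled to sum to 1000000 in each library (TPM). Where genes are set in order by CPM, as for the leading or lowest genes of a list, the order is of counts and not of level. At this depth 3 counts correspond to 0.181, 0.173 and 0.215 CPM. Of 54385 entries, 25412 were at 0 in all 3 libraries and 12771 reached 1 CPM in all 3, of which 11879 were protein-coding.

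The markers of brown adipocytes were high in every library, as the label of the tissue requires. Ucp1 (ENSMUSG00000031710, GRCm38 chr8:83290352-83298452, plus strand) had 5534, 6056 and 6253 CPM. Cidea, which encodes a lipid-droplet protein abundant in brown fat, had 1110, 1187 and 1188 CPM. Adipoq, which encodes the hormone adiponectin of all adipocytes, had 302, 289 and 338 CPM. None of these markers was low in any library. Of 29 genes listed for brown adipocyte identity and heat production, 26 reached 1 CPM in all 3 libraries, and the list took 1.57%, 1.74% and 1.69% of counts. Markers of skeletal muscle were also high in all 3 libraries.

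Counts were concentrated in a small number of genes. The 10 most abundant entries took 26.4%, 26.3% and 24.7% of counts, and 50% of all counts came from 110, 111 and 135 entries. Library 3 was the least concentrated, and when genes of the mitochondrial genome were left out the libraries drew together, with 399, 387 and 407 entries for 50% of counts. The 91 entries with a mean of at least 1000 CPM carried 47.5% ± 1.11 of counts, and the 1116 entries between 100 and 1000 CPM carried a further 26.7% ± 0.356. Of the 100 most abundant entries in each library, 90 were the same in all 3.

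**Figure D1:**
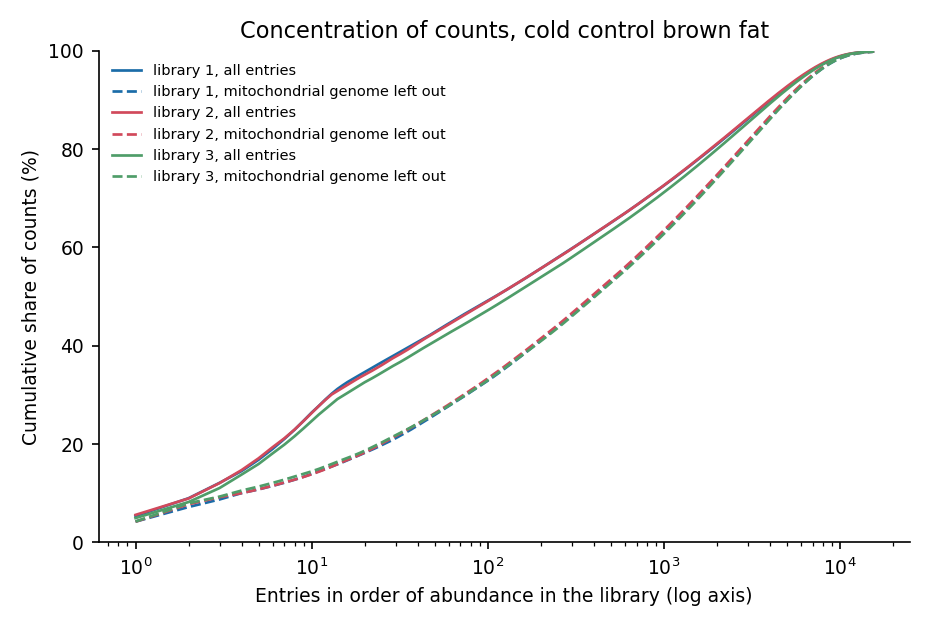
Cumulative share of counts (y axis, percent) against entries in order of abundance (x axis, log scale) for the 3 libraries, with all entries (solid lines) and with the mitochondrial genome left out (dashed lines). The 10 most abundant entries hold 24.7% to 26.4% of all counts, and the dashed lines of the 3 libraries lie almost on each other.

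The mitochondrial genome supplied a large share of the counts. Its 37 genes took 26.2%, 25.7% and 23.3% of counts (25.1% ± 1.55), of which the 13 protein-coding genes took 21.1% ± 1.06 and the ribosomal RNAs 3.87% ± 0.498. Nuclear protein-coding genes took 72.3% ± 1.72, pseudogenes 1.53% ± 0.445 and long noncoding RNAs 0.776% ± 0.020. mt-Co1, which encodes the catalytic subunit of cytochrome c oxidase, was the most abundant entry at 53012 CPM ± 3241. The mitochondrial rRNA mt-Rnr2 followed with 36399, 33401 and 27354 CPM, lowest in library 3. Among the 13 coding genes, 8 were highest in library 1 and 10 were lowest in library 3. Over all 13561 entries with a mean of at least 1 CPM, these numbers were 4502 and 3494. Per length, mt-Atp8 (59573 TPM ± 3506), mt-Co1 (59396 TPM ± 3364) and mt-Atp6 (57631 TPM ± 1762) could not be ranked, since their libraries overlap. The subunit genes mt-Atp8 and mt-Atp6 also overlap each other on the genome. mt-Nd5 (11870 TPM ± 907), mt-Nd6 (12671 TPM ± 391) and mt-Nd3 (15055 TPM ± 2285), all encoding subunits of complex I, had the lowest means. mt-Nd3 overlapped both of the others and mt-Nd4l (15579 TPM ± 1736). Counts given to near-identical nuclear copies, described next, are not in these values. Gm28438, a copy of mt-Nd3, had 8792, 952 and 2210 TPM. Gm28661, a copy of mt-Co2, had 28219, 13943 and 24383 TPM. The order per length therefore depends on how counts were divided between gene and copy.

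Nuclear copies of mitochondrial genes also received counts, and which genome those reads came from was not tested. Gm28661, an unprocessed pseudogene on GRCm38 chr1:24614885-24615565 (minus strand), is identical to mt-Co2, the gene of cytochrome c oxidase subunit 2, over 681 bases. The first 90 bases of both entries show why a read cannot tell them apart, and are printed from the annotated transcripts (capitals are not used because no base differs).
Gm28661 and mt-Co2, bases 1 to 90: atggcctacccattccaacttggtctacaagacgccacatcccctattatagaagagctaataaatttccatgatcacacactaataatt
Gm28661 had 11367, 5453 and 9417 CPM, and mt-Co2 had 13274, 17812 and 14955 CPM. The library lowest in one was the highest in the other. Their sum was 24641, 23265 and 24372 CPM, a CV of 3.03% where the CVs of the entries alone were 34.5% and 14.95%. The CV is the SD as a percent of the mean. Another 5 copies in the same stretch of chromosome 1 matched mt-Nd4, mt-Atp6, mt-Co3, mt-Co1 and mt-Nd3 at 99.7% identity or more. Adding the copy did not narrow the spread in every case. The CV of mt-Atp6 was 5.22% alone and 8.52% with Gm10925, and that of mt-Co1 was 6.11% alone and 6.26% with Gm29216. With all 6 copies added, the mitochondrial share was 27.8%, 26.4% and 24.4%.

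Genes of fatty acid synthesis took the largest shares of counts among nuclear genes. Scd1 (ENSMUSG00000037071, chr19:44394455-44407879, minus strand), which encodes the desaturase that makes monounsaturated fatty acids, was the most abundant nuclear entry at 31270, 31345 and 32609 CPM. Fasn, encoding fatty acid synthase, followed with 21872, 26347 and 28443 CPM. Scd1 varied little between libraries (CV 2.37%), whereas Fasn was lowest in library 1 and highest in library 3 (CV 13.1%). Acly, whose product supplies cytosolic acetyl-CoA, had 4187, 4045 and 4032 CPM. Acaca and Acacb, the acetyl-CoA carboxylases, had means of 2587 and 2343 CPM, and per length their ratio Acacb to Acaca was 0.911, 0.944 and 1.09, on both sides of 1. The 19 lipogenesis genes together took 7.05%, 7.45% and 7.74% of counts, and all reached 1 CPM in all 3 libraries. Long transcripts add to this share: per length the list summed to 23442 TPM, below the 42966 TPM of the 81 nuclear respiratory chain genes. Fads1 and Fads2, the desaturases of polyunsaturated fatty acids, were near the bottom of the list with means of 10.5 and 9.16 CPM.

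Per length, Scd1 stood alone at the top of the nuclear protein-coding genes with 10941, 11296 and 11899 TPM. The next 3 genes were not separable. Ucp1 had 5719, 6446.5 and 6739 TPM. Aldoa, encoding the glycolytic enzyme aldolase A, had 5738, 6489 and 6452 TPM. Gpd1, whose cytosolic glycerol-3-phosphate dehydrogenase links glycolysis to triglyceride synthesis and to the glycerophosphate shuttle, had 5633, 6543 and 6444 TPM. Each of these genes was lowest in library 1, and each had a range that overlapped the other ranges. Fasn (4411 TPM ± 669) and Atp5b, a catalytic subunit of ATP synthase (4346 TPM ± 422), came next and also overlapped. The order rests on the transcript length used. Fabp4, the adipocyte fatty acid-binding protein, was at 1848 TPM ± 191 with its longest transcript of 4231 bases, but at 8306 TPM with the principal transcript of 896 bases, above Ucp1 at 5999 TPM on that scale.

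**Figure D2:**
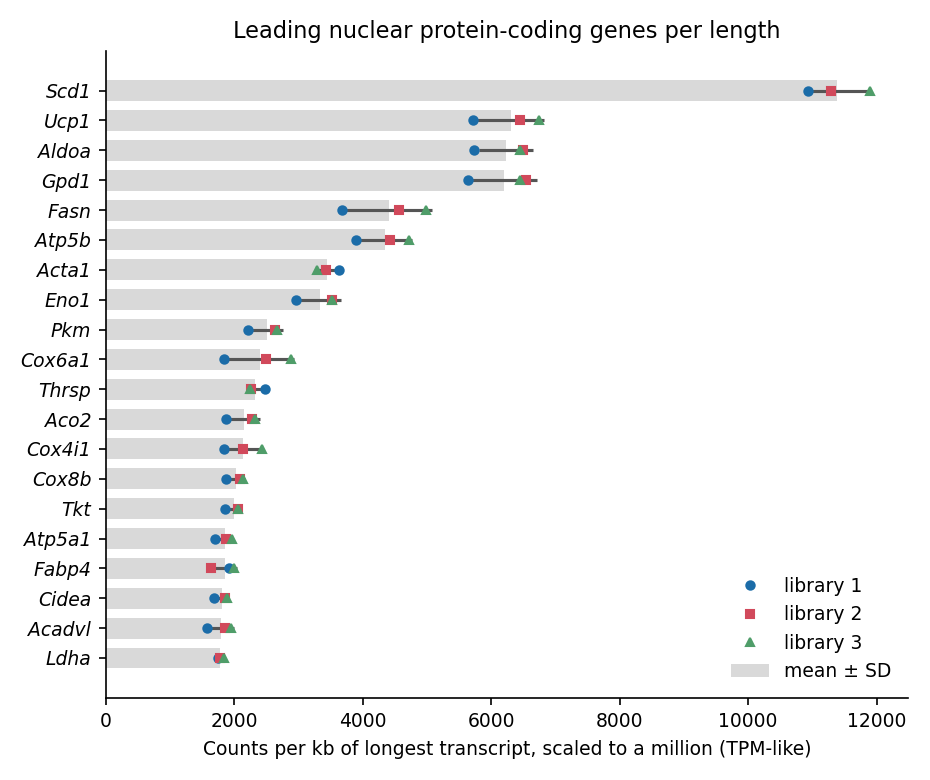
Counts per kilobase of the longest transcript (TPM, x axis, starting at 0), for the 20 leading nuclear protein-coding genes. Bars and whiskers are the mean ± SD and points are the 3 libraries. Scd1 lies between 10941 and 11899 and above all others, and the points of Ucp1, Aldoa and Gpd1 overlap.

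Among the uncoupling proteins, Ucp1 dominated. Ucp3, a muscle and brown fat paralogue, had 141, 129 and 151 CPM, and Ucp2, widely expressed in immune cells and other tissues, had 27.2, 28.6 and 41.1 CPM. Per length Ucp1 was 63.6-fold ± 5.87 above Ucp3 and 461-fold ± 78.6 above Ucp2. The other mitochondrial carriers were led in counts by Slc25a1, the citrate carrier that feeds lipogenesis (812 CPM ± 56.0), and by Slc25a51, the mitochondrial NAD carrier (600 CPM ± 27.7). The adenine nucleotide translocases Slc25a4 and Slc25a5 were close to equal per length, with ratios of 1.15, 1.00 and 0.995. Slc25a20, which carries acylcarnitines into the matrix, had 518, 529 and 528 CPM.

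Nuclear genes of the respiratory chain took 3.03%, 3.15% and 3.33% of counts. All 81 genes found for this list, cytochrome c and the ATP synthase inhibitor included, reached 1 CPM in every library. Atp5pb, also listed for ATP synthase, had no entry under that symbol and is not counted. Complex V, ATP synthase, took 1.07% ± 0.054 and complex I took 0.762% ± 0.038. Atpif1, the inhibitor of ATP synthase, was at 4.17, 3.58 and 4.02 CPM, among the lowest of the complex V list. Several subunits of cytochrome c oxidase have tissue forms, and these differed per length. Cox7a1, a heart, muscle and brown fat form, was 2.16-fold ± 0.143 above Cox7a2. Cox8b was 1.46-fold ± 0.095 above Cox8a. The other pairs went the opposite way, with Cox6a2, the muscle form, at 0.060 ± 0.021 of Cox6a1 and Cox4i2, the form linked to low oxygen, at 0.002 ± 0.0005 of Cox4i1. None of these ratios crossed 1 in any library.

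Fatty acid oxidation genes varied little between libraries. The 23 genes took 1.85%, 1.95% and 1.98% of counts, and all reached 1 CPM in all 3 libraries. Their median CV was 4.03%, against 12.1% over the 13561 entries with a mean of at least 1 CPM. That wider set holds many low entries, whose CV includes more counting error. Its median CV was 7.24% between 100 and 1000 CPM and 6.95% at 1000 CPM or more. After counting variance was subtracted, the medians were 3.94% for the list and 9.08% for the wider set. Hadhb, a subunit of the trifunctional protein, had 2873, 2832 and 2866 CPM. Acadvl, the very-long-chain acyl-CoA dehydrogenase, had 2013, 2308 and 2403 CPM. Both were abundant in every library, with Acadvl the wider of the pair. Cpt1b, the muscle and brown fat form of the enzyme that commits fatty acids to the mitochondrion, was 62.2-fold ± 4.02 above the liver form Cpt1a per length. The genes that bring fatty acids in were led by Fabp4 (4791, 3965 and 4791 CPM) and Lpl, encoding lipoprotein lipase (4096, 3613 and 3929 CPM). Both were lowest in library 2. Pnpla2, encoding the triglyceride lipase ATGL, had 2075, 2589 and 2781 CPM, and Lipe, encoding hormone-sensitive lipase, had 994, 1138 and 1271 CPM. These lipase genes were lowest in library 1 and highest in library 3.

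Glucose handling ran alongside. The 22 glycolysis and glucose uptake genes took 2.64% ± 0.144 of counts and the 32 genes of pyruvate oxidation and the citrate cycle took 2.79% ± 0.076. Slc2a4, the insulin-responsive transporter GLUT4, was 54.5-fold ± 3.51 above Slc2a1 per length, and Hk2 was 9.46-fold ± 1.81 above Hk1. Pdk4, whose kinase shuts off pyruvate dehydrogenase, had 2372, 2720 and 2110 CPM, in the same range as Ogdh of the citrate cycle (2053, 2441 and 2341 CPM) in share of counts. Pck1, the glyceroneogenic enzyme, had 1440, 1938 and 2043 CPM. Of the 20 genes of branched-chain amino acid breakdown, 19 reached 1 CPM in all 3 libraries. The exception was Bcat1, the cytosolic aminotransferase (0.724, 0.866 and 0.143 CPM), while the mitochondrial form Bcat2 was at 74.5, 78.3 and 89.8 CPM.

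Genes of the signalling upstream of heat production were detected at a wide range of levels. Adrb3, the β3-adrenergic receptor of adipocytes, had 254, 344 and 358 CPM. Per length it was 14.7-fold ± 1.93 above Adrb1. Gnas, encoding the stimulatory G protein, was the leading gene of the receptor and G protein list with 2362, 2717 and 2758 CPM. Adcy3, the floxed gene, had 138, 171 and 169 CPM. Adcy6 had 172, 192 and 217 CPM, and per length it was 1.14-fold ± 0.077 above Adcy3, higher in each library by a small margin. That ratio takes Adcy3 as its own entry only. An entry named ENSMUSG66666620654, which carries the closing digits of the Adcy3 identifier, has no annotation and no length. It had 295, 339 and 262 CPM, more counts than Adcy3 in every library, and the files do not say what it is. Whether its counts belong to Adcy3, which would change the ratio to Adcy6, was not tested. Downstream, Prkar2b, the regulatory subunit of protein kinase A typical of fat, led its list with 776, 813 and 750 CPM, followed by the phosphodiesterase Pde3b with 283, 293 and 318 CPM.

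Regulators of the brown fat programme covered a wide range and were less even than the enzymes. Pparg, the master regulator of adipocyte formation, had 136, 175 and 157 CPM, and Cebpa had 258, 364 and 458 CPM. Ebf2, which marks the brown lineage, had 35.8, 36.2 and 35.0 CPM (CV 1.78%). Prdm16, a coregulator of brown identity, had 19.5, 31.0 and 14.3 CPM. Ppargc1a, the cold-responsive coactivator of mitochondrial genes, had 44.6, 95.6 and 39.2 CPM, and Dio2, which converts thyroxine to its active form, had 103, 178 and 102 CPM. Prdm16, Ppargc1a and Dio2 were all highest in library 2, and for Ppargc1a and Dio2 the other libraries were close together. Ppargc1b, the close relative of Ppargc1a, had 52.4, 74.5 and 68.8 CPM. Thra exceeded Thrb 7.63-fold ± 1.35 per length. The secreted factors Fgf21 (0.906, 1.85 and 0.430 CPM) and Gdf15 (0.483, 0.868 and 0.430 CPM) were low but above the level of 3 counts in each library.

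Genes tied to white fat were low. The 12 listed took 0.016%, 0.012% and 0.017% of counts. Lep, encoding leptin, had 26.1, 19.2 and 24.3 CPM and Retn, encoding resistin, had 43.4, 29.0 and 49.5 CPM, both lowest in library 2. Wt1 and Tcf21, transcription factors of other fat depots, were at 0 in all 3 libraries.

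Skeletal muscle genes made up 1.75% to 2.32% of counts. All 22 markers reached 1 CPM in all 3 libraries. Myh4, the fast myosin heavy chain, had 4507, 4313 and 2758 CPM and was among the 25 most abundant entries. Acta1, the actin of skeletal muscle fibres, had 3101, 2844 and 2699 CPM. Per length Ucp1 was 1.58-fold, 1.88-fold and 2.05-fold above Acta1. The muscle markers mostly shared an order of libraries. Of these, 20 of 22 were highest in library 1 and 18 of 22 were lowest in library 3, against 4502 and 3494 of all 13561 entries. Under the TMM scaling factors the counts for muscle markers were 20 and 20, and no count over all entries is given on that scale. Myh1, another fast myosin, went against that order with 586, 704 and 1029 CPM. In bulk tissue, a larger number of muscle fibres and more RNA per fibre cannot be told apart. Atp2a1 (2823, 2741 and 2548 CPM) and Ckm (1378, 1278 and 1096 CPM), both in the muscle list, were abundant here. Which cells they came from was not tested. The same holds for Cox7a1, Cpt1b and Ucp3, tied above to both muscle and brown fat. The cell source of the other metabolic genes, among them Aldoa, Slc2a4, Hk2, Pdk4, Slc25a4 and Cox8b, was not tested either.

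**Figure D3:**
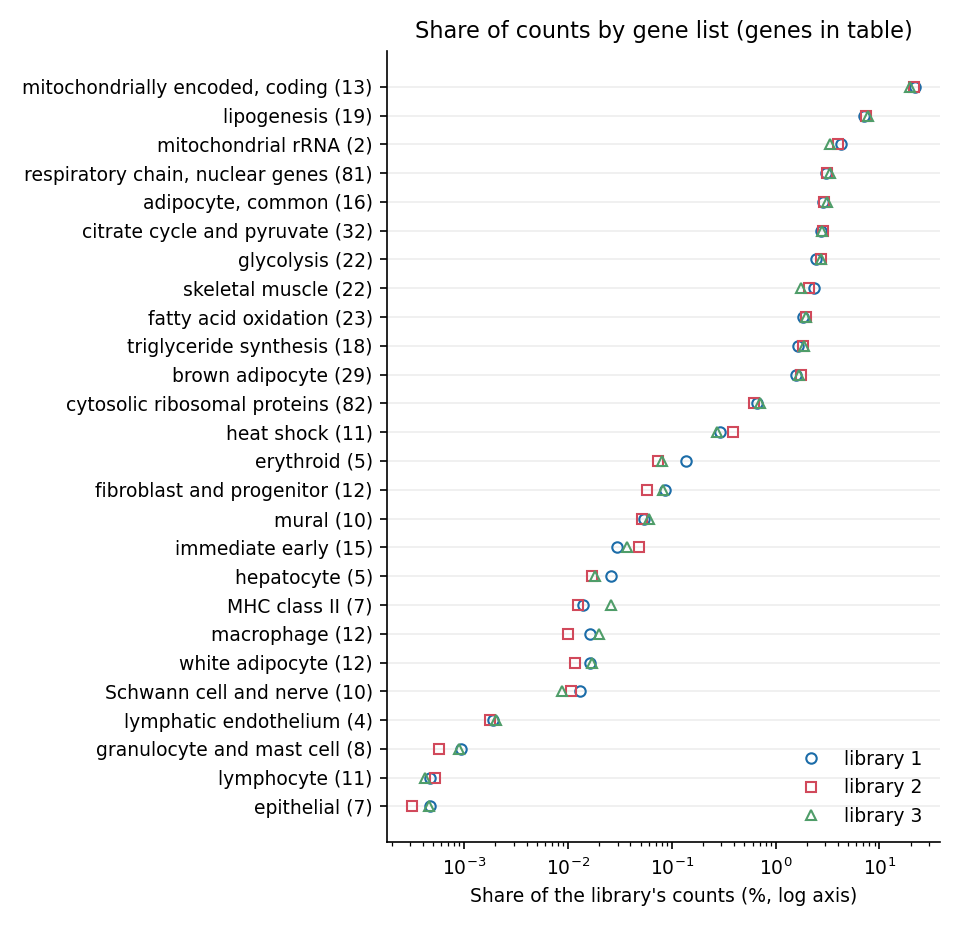
Share of each library's counts (x axis, percent, log scale) taken by 26 gene lists, with the number of genes in the table in brackets and 1 symbol per library. Mitochondrially encoded genes and lipogenesis lead, skeletal muscle lies at 1.75% to 2.32% beside the brown adipocyte list, and lymphocyte and epithelial lists lie below 0.001%.

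Other cell types were present at lower shares. Endothelial markers were detected in full, 14 of 14, although Fabp4 and Cd36 in that list are also adipocyte genes. Pecam1 had 119, 119 and 135 CPM and Cdh5 had 163, 174 and 210 CPM. Of the 14 endothelial genes, 12 were highest in library 3, against 6308 of all 13561 entries. Macrophage markers took 0.016%, 0.010% and 0.020% of counts, led by Lyz2, encoding lysozyme (45.7, 27.9 and 54.8 CPM). All 12 were lowest in library 2. Fibroblast and progenitor genes took 0.085%, 0.058% and 0.083%, led by the collagen gene Col3a1 (293, 199 and 267 CPM), and all 11 at 1 CPM or more were lowest in library 2. Over all entries with a mean of at least 1 CPM, 5004 of 13561 were lowest in library 2. The counts for macrophage and fibroblast genes were the same with TMM or RLE scaling factors and with the mitochondrial genome left out. The count over all entries is given by the library total only.

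Blood and liver transcripts were highest in library 1. Hbb-bs, a β-globin gene, had 646, 329 and 367 CPM. All 5 erythroid genes were highest in library 1, against 4502 of all 13561 entries with a mean of at least 1 CPM. The globin genes come in near-identical copies, so the division of counts among them is uncertain. Alb, encoding the plasma protein albumin, had 216, 141 and 154 CPM. All 5 hepatocyte genes were highest in library 1, beside the same 4502 of 13561 entries. None of 11 lymphocyte genes had a mean of 1 CPM. Cd3e, a T cell receptor component, was at 0.302, 0.058 and 0.573 CPM. Ly6g of neutrophils and Krt5 of epithelia were at 0 in all 3. The Y-linked genes Ddx3y (96.5, 82.5 and 76.9 CPM) and Eif2s3y (62.7, 39.5 and 49.4 CPM) were present in all 3 libraries, and Xist, the RNA of the inactive X chromosome, had 2.76, 1.10 and 1.93 CPM.

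Ribosomal protein genes took 0.662% ± 0.042 of counts for the 82 of the cytosolic ribosome and 0.336% ± 0.012 for the 77 of the mitochondrial ribosome. Of the 81 cytosolic genes at 1 CPM or more, 62 were lowest in library 2, against 5004 of all 13561 entries. The count for the cytosolic genes was 51 under TMM factors and 48 under RLE factors, and no count over all entries is given on those scales. Rps2, the leading gene, had 330, 359 and 392 CPM and did not follow that order.

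The libraries were close. Between pairs of libraries, Pearson's r of log2 CPM across 13561 entries was 0.985, 0.981 and 0.986, where genes are not independent replicates, and 86.1% to 88.7% of entries agreed within 1.5-fold. The common biological coefficient of variation was 13.6% over 13745 genes. A check for a library deposited more than once found none: pairs differed by more than counting noise, with a chi-square per degree of freedom of 11.95 to 20.1. Among 7830 protein-coding genes with a mean of at least 10 CPM the median CV was 9.10%. The steadiest gene with a mean of at least 100 CPM was Sort1, encoding the sorting receptor sortilin, with 202, 202 and 201 CPM. Plin2, which coats lipid droplets, had 1609, 1600 and 1604 CPM, and Decr1, an enzyme for unsaturated fatty acid oxidation, had 661, 664 and 663 CPM. With 3 libraries, a CV below counting error (Sort1, Plin2) does not show that a gene is steadier than counting allows.

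**Figure D4:**
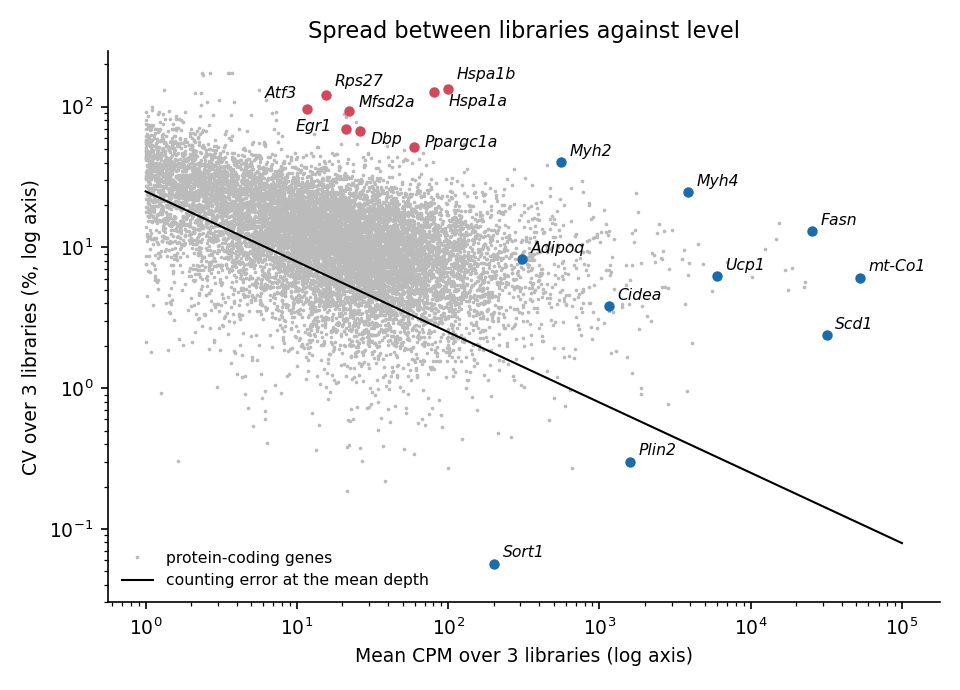
CV over the 3 libraries (y axis, percent, log scale) against mean CPM (x axis, log scale) for protein-coding genes at 1 CPM or more, with the counting error at the mean depth as a line. Hspa1b and Hspa1a lie above 100%, Ucp1, Cidea and Scd1 lie between 2% and 7%, and Sort1 and Plin2 lie below the line.

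After counting variance was subtracted, 151 of the 7830 genes (1.93%) had a CV above 30%. Of these 151, 82 were highest in library 3, 38 in library 1 and 31 in library 2. The share highest in library 3, 54.3%, was near the 48.9% over all 7830 genes. The 10 with the largest CV fell into near-identical copies and genes that moved with library 2 or library 3. Rps27 (4.82, 4.53 and 37.7 CPM) and its retrotransposed copy Rps27rt (35.2, 26.7 and 0 CPM) are identical over 341 bases, and their sum was 40.035, 31.2 and 37.7 CPM. Pde2a (38.5, 21.7 and 2.97 CPM) is identical over 3957 bases to the overlapping entry Gm45837 (0, 22.4 and 60.5 CPM), with a sum of 38.5, 44.1 and 63.5 CPM. Zc3h11a has 2 entries identical over 4251 bases whose sum was 69.5, 66.5 and 66.5 CPM. In these 3 pairs the sum varied less than its parts. A further entry, Gm38394 (4.18, 4.92 and 0.887 CPM), is identical to the more variable Zc3h11a entry over 4182 bases, and the sum of those had a CV of 67.5%, against 64.5% for Gm38394 alone.

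Heat shock genes were highest in library 2. Hspa1b, encoding an inducible HSP70 chaperone, had 31.4, 252 and 15.1 CPM, and its neighbour Hspa1a had 27.0, 200 and 15.8 CPM. The pair is 99.2% identical over 2201 bases, so their division is uncertain, but their sum had the same order, 58.4, 452 and 30.9 CPM. Without library 2 the means were 23.2 CPM for Hspa1b and 21.4 CPM for Hspa1a, instead of 99.6 and 80.9 CPM. In a list of 11 heat shock genes chosen after these values were seen, 10 were highest in library 2, among them Dnajb1, an HSP40 cochaperone (46.0, 76.0 and 33.1 CPM), and Hspb1, the small chaperone HSP25 (164, 256 and 198 CPM). The exception was Hspd1, the mitochondrial HSP60 (602, 595 and 538 CPM), and with TMM factors all 11 were highest in library 2. Over all entries, 2751 of 13561 were highest in library 2 by the library total. No count over all entries is given with TMM factors, where the factor of 0.976 raises library 2 in every gene. The wider list of 24 chaperone and unfolded protein response genes had 14 highest in library 2, with a median log2 deviation there of 0.05 against 0.33 for the 11 heat shock genes.

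The promoters of these genes are shown because the genes moved together, with the sequence GAANNTTC, the core of the heat shock element, in capitals. Each window is the 250 bases before a RefSeq transcript start (GRCm38.p6), 5′ to 3′ on the strand of the gene. GAANNTTC reads the same on both strands, and 6.69% of 32851 such windows hold it at least once.
Hspa1a, chr17:34972157-34972406, minus strand: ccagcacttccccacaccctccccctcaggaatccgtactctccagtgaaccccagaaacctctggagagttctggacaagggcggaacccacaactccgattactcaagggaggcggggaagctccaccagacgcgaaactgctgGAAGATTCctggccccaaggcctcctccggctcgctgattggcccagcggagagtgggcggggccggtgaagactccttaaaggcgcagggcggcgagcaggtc
Hspa1b, chr17:34959239-34959488, minus strand: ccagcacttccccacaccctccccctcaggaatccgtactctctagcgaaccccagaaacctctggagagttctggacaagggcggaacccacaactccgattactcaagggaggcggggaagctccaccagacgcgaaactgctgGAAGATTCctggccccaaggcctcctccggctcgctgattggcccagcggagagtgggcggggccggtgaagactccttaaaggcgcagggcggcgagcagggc
Hspb1, chr5:135887669-135887918, plus strand: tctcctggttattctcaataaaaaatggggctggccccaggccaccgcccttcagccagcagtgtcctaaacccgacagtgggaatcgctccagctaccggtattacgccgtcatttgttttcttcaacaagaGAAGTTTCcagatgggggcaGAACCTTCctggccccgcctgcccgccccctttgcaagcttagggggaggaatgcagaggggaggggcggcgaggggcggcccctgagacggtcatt
Hspa1a and Hspa1b held 1 match each, in windows that are almost the same sequence and so do not count separately. Hspb1 held 2, a number that 0.228% of windows reach. Several windows were scanned, so that share is a reference and not a test. Of the 3 windows of Dnaja1, 1 held a match, and the windows of Dnajb1, Hsph1 and Bag3 held none. A match is a description of letters, and binding was not measured.

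Immediate early genes, which respond within minutes to cAMP and other signals, showed the same library on top. Of 14 at 1 CPM or more, 11 were highest in library 2, against 2751 of all 13561 entries. Atf3 had 6.34, 24.5 and 4.02 CPM. Egr1 had 13.9, 38.0 and 11.4 CPM. Nr4a1, an orphan nuclear receptor and a target of cAMP signalling, had 29.4, 63.1 and 25.3 CPM. In each of these genes library 2 stood apart and the other libraries lay close together. Without library 2 the means of Atf3 and Egr1 were 5.18 and 12.7 CPM, instead of 11.6 and 21.1 CPM. Mfsd2a, a lysophospholipid transporter induced by fasting and β-adrenergic signals, had 3.86, 44.0 and 17.96 CPM, different in all 3. Irs2, an insulin receptor substrate (16.2, 40.4 and 17.8 CPM), and the clock gene Per1 (27.1, 67.6 and 43.8 CPM) were also highest in library 2. Fosl2 (35.8, 34.1 and 38.5 CPM), Dusp1 (46.3, 54.6 and 81.3 CPM) and Ier2 (8.75, 12.3 and 16.0 CPM) were highest in library 3. A maximum in library 2 was not particular to heat shock and immediate early genes. It was found in 15 of 28 brown adipocyte genes, 9 of 21 glycolysis genes and 9 of 23 fatty acid oxidation genes. Under TMM factors these counts were 23, 17 and 17. Other lists differed, with 2 of 19 lipogenesis genes and 0 of 14 endothelial genes highest in library 2 by the library total.

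The promoters of Nr4a1 and of Ppargc1a, also highest in library 2, are shown with TGACG, the half-site of the cAMP response element, in capitals on either strand (CGTCA on the printed strand is the same match). Of the 32851 windows, 17.8% hold at least 1 match and 0.137% hold 4 or more.
Nr4a1, chr15:101266596-101266845, plus strand: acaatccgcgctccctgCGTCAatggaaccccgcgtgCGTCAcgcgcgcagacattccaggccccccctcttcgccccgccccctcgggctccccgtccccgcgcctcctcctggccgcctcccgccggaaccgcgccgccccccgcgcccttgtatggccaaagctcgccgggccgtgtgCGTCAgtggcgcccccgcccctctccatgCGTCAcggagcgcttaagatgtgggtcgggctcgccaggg
Ppargc1a, chr5:51567726-51567975, minus strand: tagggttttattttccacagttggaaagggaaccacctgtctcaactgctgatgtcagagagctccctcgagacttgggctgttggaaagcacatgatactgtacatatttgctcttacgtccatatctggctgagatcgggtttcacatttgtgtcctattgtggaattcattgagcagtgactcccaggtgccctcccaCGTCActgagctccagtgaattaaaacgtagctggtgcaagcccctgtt
Nr4a1 held 4 matches and Ppargc1a held 1. Several windows were scanned here too, so the shares of windows are a reference and not a test. Atf3, Nfil3 and each of the 2 windows of Per1 held 1, and the windows of Mfsd2a, Irs2 and Irf4 held none. Nfil3 (22.7, 45.3 and 20.8 CPM) and Irf4 (6.95, 16.3 and 9.50 CPM) were also highest in library 2. The windows of Egr1, Dio2 and Prdm16 are not given here.

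**Figure D5:**
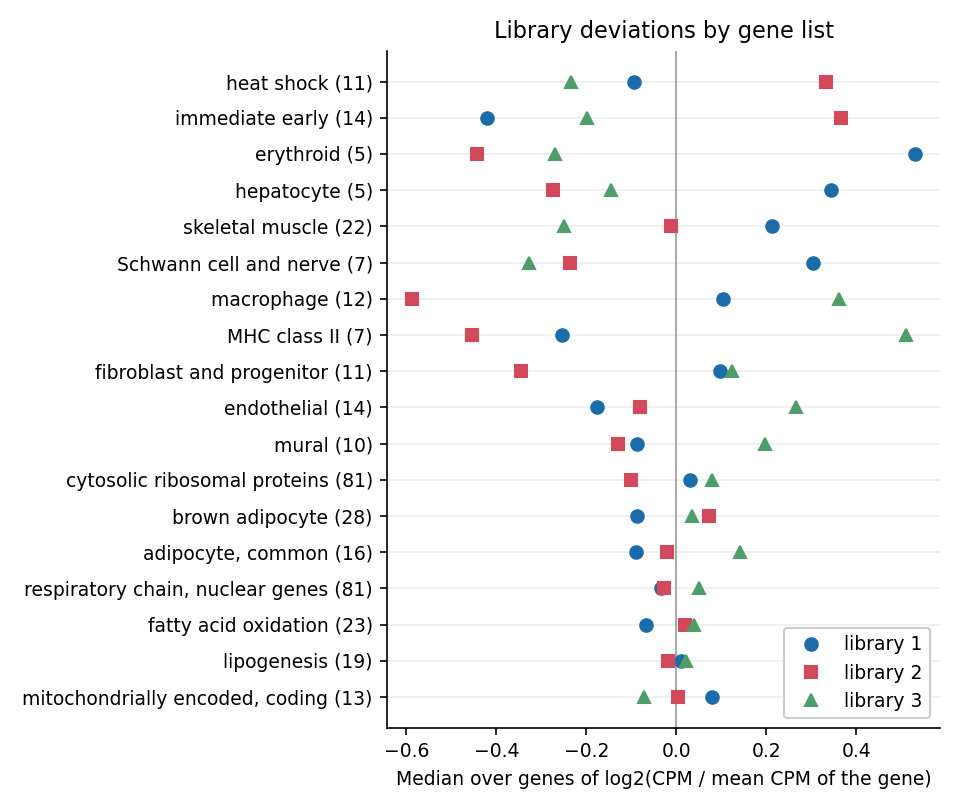
Median over the genes of each list of log2 of CPM over the gene's mean CPM (x axis), for the 3 libraries, with the number of genes at a mean of 1 CPM or more in brackets. Library 2 is highest in heat shock and immediate early genes and lowest in macrophage and fibroblast genes, library 1 is highest in erythroid and hepatocyte genes, and library 3 in MHC class II genes, while metabolic lists lie near 0.

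Library 3 stood out in other genes. Dbp, an output gene of the circadian clock, had 12.2, 20.7 and 45.9 CPM, and without library 3 its mean was 16.4 rather than 26.3 CPM. Its annotated exons share 541 bases with the neighbouring gene Sphk2 (24.2, 25.5 and 29.1 CPM), so part of the counts could be divided differently. The clock list as a whole did not share the order of Dbp. Of 18 clock genes, 8 were highest in library 3, near the share over all entries (6308 of 13561), and 6 were lowest there. Of the 18, 12 were lowest in library 1 and none was lowest in library 2, against 5063 and 5004 of all 13561 entries. Bhlhe40 had 132, 213 and 174 CPM, Nr1d1 had 81.7, 123 and 131 CPM, and Arntl, which peaks opposite to Nr1d1, had 13.1, 11.1 and 8.32 CPM. Genes of MHC class II antigen presentation, a list chosen after these values were seen, were highest in library 3 in 6 of 7 cases, beside 6308 of all 13561 entries, as in Cd74 (52.9, 47.4 and 105 CPM) and H2-Ab1 (21.3, 21.4 and 45.3 CPM). The macrophage gene C1qa had 14.7, 10.6 and 26.2 CPM, also highest in library 3. These differences between single libraries have no replicate of their own.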

How the data were processed

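RNA sequencing of poly(A) RNA from 3 cold control libraries was read from 1 table. The authors deposited estimated counts per gene, not normalized, which were used unrounded. The submitters' processing notes name StringTie, Salmon, edgeR and the build GRCm38, without versions or roles. Whether the counting used strand is not stated. Symbols, classes and lengths came from GENCODE vM21 (GRCm38), and 254 entries (0.036% of counts) had no annotation. CPM used the library total. TPM used the longest annotated transcript. The coefficient of variation was fitted with edgeR 4.0.16 in R 4.3.3 on rounded counts (filterByExpr, TMM, intercept only). The fit was tested on simulated data. Near-identical entries were found with blastn 2.17.0 (98% identity, 100 bases or more). No group was compared, so no test between groups was run.

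The members and lists were chosen with earlier results of these data known. Named genes were the 25 most abundant entries, up to 5 leading members of each list and its undetected defining markers, Ucp1 to Ucp3, Adcy3 and its unannotated entry, and the 10 most and 10 least variable genes. Any other gene named was chosen after its values were seen. Alternatives were TMM and RLE factors, other thresholds, lengths and totals, and leaving out each library. Replicates were not stated to be separate animals, so the SD measures only the spread between these libraries.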

Additional observations from a re-analysis of the deposited data

How the results depend on the processing

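No paired analysis was possible because only 1 group was described and no test between groups was run. The choice of total moved most values. With the mitochondrial genome left out, the Ucp1 CPM was 7933 and its rank per length among all entries was 3 instead of 18. The entries above Ucp1 were then Scd1 and Gm28661, the nuclear copy of mt-Co2. The 10 most abundant entries took 14.1% of counts. The shares became 2.74% for skeletal muscle (from 2.05%) and 2.22% for the brown adipocyte list (from 1.67%). They became 4.23% for the nuclear respiratory chain (from 3.17%) and 0.884% for cytosolic ribosomal proteins (from 0.662%). All nuclear values then scale by 1.33. With the 10 most abundant entries left out of the total, the Ucp1 CPM was 8003. With protein-coding genes only, the mitochondrial share was 22.6%. TMM factors moved none of 237 other named genes by more than 1 SD. Leaving out a library moved 11 of 238 named genes by over 1.5-fold. Beside those given above and 1 not reported here these were Rps27 (4.67 CPM without library 3), Rps27rt (13.3 without library 1), Pde2a (12.3 without library 1), Zc3h11a (15.1 without library 1) and Mfsd2a (10.9 without library 2). The common coefficient of variation lay between 12.4% and 14.996% with a library left out and at 16.3% without a filter. Principal transcript lengths and the addition of nuclear copies were chosen after seeing the data. Leaving muscle markers out of the total does not apply to the muscle list.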

Other observations

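Growth and matrix genes outside the comparisons above were described by level only. Sparc, encoding a matrix protein secreted by fat and vessels, led the list of secreted factors with 722, 717 and 859 CPM, ahead of Vegfa, the angiogenic factor, with 435, 552 and 498 CPM. Nampt, the enzyme that recycles nicotinamide to NAD, had 190, 191 and 193 CPM and was the steadiest of the named secreted genes. Cfd, encoding adipsin, had 294, 165 and 360 CPM and was the widest of the leading ones, with library 2 lowest. Il6 was at 0 in all 3 libraries.

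Genes of alternative heat-producing cycles were uneven. Alpl (42.1, 52.0 and 46.8 CPM), Ckb (37.7, 43.5 and 46.0 CPM) and Slc6a8, the creatine transporter (35.5, 31.2 and 32.4 CPM), were detected, while Gatm (3.42, 2.54 and 2.22 CPM) and Gamt (2.29, 2.66 and 3.89 CPM), the enzymes of creatine synthesis, were low and Ckmt1, a mitochondrial creatine kinase, had counts in library 3 only. Sln, encoding the calcium pump regulator sarcolipin, had 5.31, 2.66 and 5.52 CPM. Rbm3 and Cirbp, RNA-binding proteins induced by cold in cultured cells, had 40.2, 31.8 and 43.3 CPM and 10.3, 11.6 and 11.5 CPM. No warm group was available to set these against.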
